A study of Mus musculus with 6 samples.

Results

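Genes for cell adhesion and axon guidance were followed across the splicing arrays as a group of 131 alternative splicing or transcript end events in 75 genes, out of 13002 events in 7788 genes. They were chosen by gene symbol and not by any measured value: semaphorins, plexins, neuropilins, ephrins and Eph receptors, Robo, Slit, netrin and Unc5 genes, cadherins, protocadherins, contactins and their associated proteins, Ncam, Cadm, Nfasc, Nrcam and Chl1, leucine-rich repeat adhesion proteins and catenins. The choice was made with earlier results of these data known. Events inside the introgressed segment around Nxf1 on chromosome 19 would have been left out, but 0 of the group lay there. L1cam and Robo1, which the rule would also take, had no event in the table. Of the 75 symbols, 74 matched current RefSeq symbols and 1, Ntn2l, matched as an older name of Ntn3.

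Total RNA came from whole brain of 6 mice of a B6.CAST congenic stock, which carries a Mus musculus castaneus segment around Nxf1, the gene for the major mRNA export factor, on a C57BL/6J background. The animals formed 3 same-sex littermate pairs, each of 1 homozygous Nxf1 CAST and 1 homozygous Nxf1 B6 animal. Pair 1 was female and 46 days old, pair 2 male with the Nxf1 B6 animal 22 and the Nxf1 CAST animal 23 days old, and pair 3 female and 23 days old. Each brain was hybridized to 1 MJAY array, an Affymetrix design with probes on the exons and junctions of each alternative path, to ask which isoform choices differ with the Nxf1 allele. Every Nxf1 CAST animal carries the other castaneus alleles of the same segment as well, so Nxf1 and its neighbours cannot be told apart.

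The values used here are whole-number intensities for a set A and a set B, already pooled over the arrays of each set. They carry no spread between animals, so no value below has an SD, an n or a test, and the small number of arrays limits their precision. No genotype is written beside either set. Its header defines the direction as mutant over wild type and its columns run as set B over set A, so set B was likely Nxf1 CAST and set A likely Nxf1 B6. For each event the ratio of exclusion to inclusion intensity in set B was divided by that in set A, and the log2 of this quotient is called the shift. A positive shift means relatively more of the exclusion path in set B. An event was counted past the threshold when its absolute shift was over 0.5, a size taken from the study's methods. The study also required a low false discovery rate, which was not applied here, so these counts are not comparable with its calls. For cassette exons the exclusion path skips the exon, and for retained introns it removes the intron. For alternative starts and ends, which of the alternatives counts as exclusion is not given in the sources used here. The sign of a shift therefore has no common meaning across types of event. Counts of shifts above 0 over several types give no common direction of isoform choice. Positions are those of the table, whose genome assembly is not given in the sources used here.

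Growing axons read secreted and membrane-bound cues through receptors that act on the cytoskeleton: semaphorins through plexins and neuropilins, ephrins through Eph receptors, Slits through Robo proteins and netrins through Unc5 proteins. Cadherins and protocadherins join cells by calcium-dependent contacts, and catenins tie classical cadherins to actin. Ncam, L1 family and contactin proteins bind through immunoglobulin domains. Many of these genes are rich in alternative exons in brain, and isoforms can differ in a membrane anchor, a binding domain or a cytoplasmic tail.

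In the whole group, 10 of 131 events in 10 genes passed the threshold, which is 7.63%, while 7.34% of all 12948 events with intensities did. The median absolute shift was 0.18 (95% order-statistic interval 0.15 to 0.21, which covers the spread between events and not between animals), and it was 0.18 over all events. The group thus lay at the level of the table as a whole in both measures. The 90th percentile of absolute shifts was 0.47 in the group and 0.45 over all events. Shifts were under 0.1 in size for 39 events, under 0.2 for 74 and over 0.3 for 30, or 22.9%, against 26.0% of all events. Of the 122 events with an exclusion path, 65 had a shift above 0 (53.3%, against 55.4% over all events). The remaining 9 events, in 8 genes, have several paths set against a shared reference intensity and were counted without a sign. Intensities ranged from 59 to 5043, and 19 events had at least 1 intensity under 100, including 3 of the 10 past the threshold.

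Among those 10 events, 7 were above 0.5 and 3 were below -0.5. Over all events with an exclusion path, 4.52% lay above 0.5 and 2.72% below -0.5. With 50 added to every intensity, 4 events passed, 2 on each side (Sema3f, Sema3b, Cntnap4 and Ctnnal1), and Ephb4, Plxnd1, Unc5b, Cdh23, Pcdh17 and Sema4d did not. The 3 negative shifts were all in semaphorin genes. The 7 positive shifts fell in 7 genes of different families, namely Ephb4, Plxnd1, Cntnap4, Unc5b, Ctnnal1, Cdh23 and Pcdh17. In 9 of the 10, the exclusion and the inclusion path differed between the sets in opposite directions, Pcdh17 being the exception. Picking events by a large gap between the 2 paths favours opposite directions. In some, 1 path was nearly level, as in Sema3b (exclusion, log2 difference -0.02) and Sema4d (inclusion, 0.04). The exclusion path differed more in 6 events and the inclusion path in 4.

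**Figure D1:**
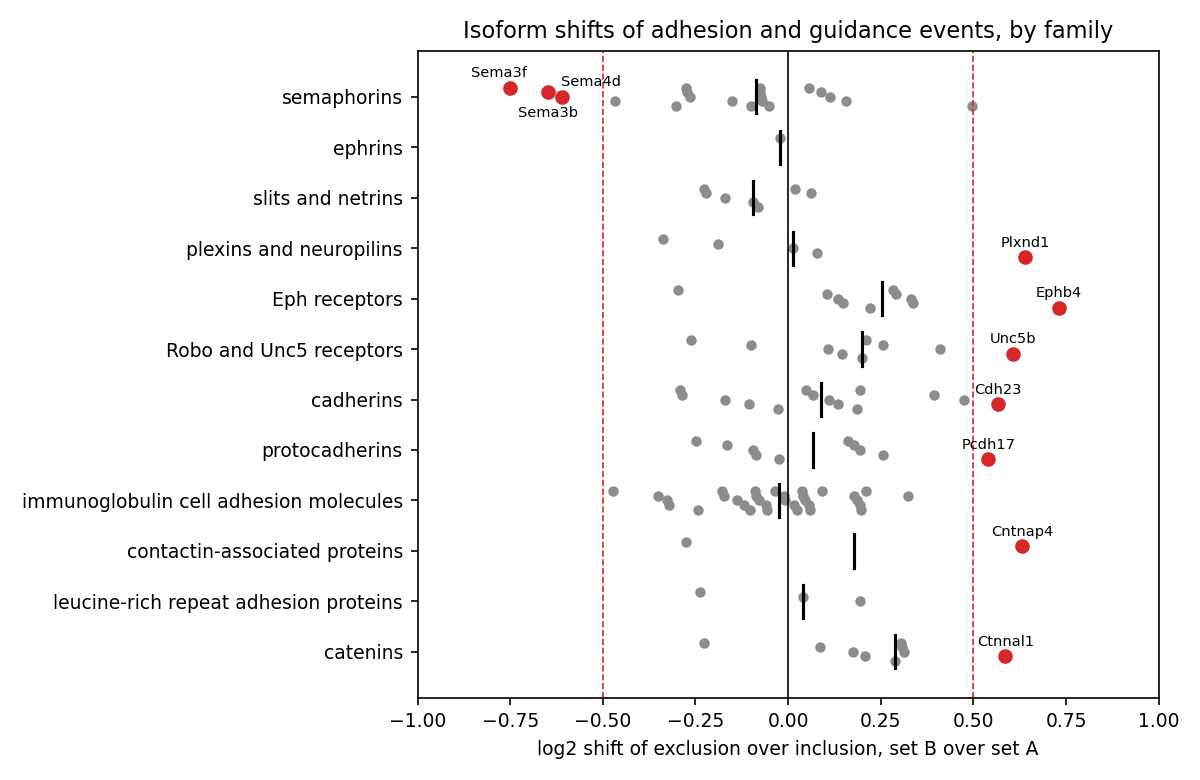
Each point is 1 of the 122 events with an exclusion path, placed by its log2 shift of exclusion over inclusion in set B over set A (horizontal axis) and its gene family (vertical axis). Black bars are family medians, dashed lines the threshold of 0.5 on either side, and red points the 10 events past it. The 3 red points on the left are all semaphorins, and Eph receptor, Robo and Unc5 and catenin points lie mostly right of 0.

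Guidance ligands came first. The 12 semaphorin genes had 22 events, and 5 of the 20 with an exclusion path had a shift above 0 (55.4% over all events), with a median of -0.09. Sema3f, a secreted semaphorin that repels axons through neuropilin 2, gave the most negative shift in the group. Its cassette exon of 93 nucleotides (chr9:107592110-107594498, minus strand) had exclusion intensities of 103 and 85 in the sets A and B, given in this order from here on, and inclusion intensities of 365 and 507. Inclusion of this exon was thus relatively higher in set B, with a shift of -0.75, a 1.68-fold difference that ranked 148 among all events by size. Sema3b, a secreted relative from a neighbouring stretch of chromosome 9, had a cassette of 379 nucleotides (chr9:107507918-107509364, minus strand) with inclusion intensities of 231 and 356. Its exclusion intensity was nearly level, at 118 and 116, and the shift was -0.65, or 1.57-fold. Sema4d, a membrane-bound semaphorin that binds plexin B1, had a cassette of 64 nucleotides with exclusion intensities of 202 and 136 and inclusion intensities of 286 and 294. Here it was the exclusion path that was lower in set B, for a shift of -0.61. No intensity of these 3 exons was over 507. Intensities come from different probes, here and below, so they do not rank the RNA levels of different paths or events.

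The alternative starts of the same secreted semaphorins had small shifts above 0. That of Sema3f had exclusion intensities of 135 and 168, inclusion intensities of 364 and 426 and a shift of 0.09. That of Sema3b had a shift of 0.16. The sign of a start cannot be set against that of a cassette, as the exclusion path of a start is not known. Among the 7 cassette exons of semaphorin genes, 1 had a shift above 0 and the median was -0.30, a subset picked out after its values were seen. In cassette exons of the whole group, 3 of 43 passed the threshold (6.98%, against 8.56% of all cassettes). The exception among the semaphorin cassettes was that of Sema4f, a membrane-bound member. This cassette of 94 nucleotides had exclusion intensities of 222 and 317 and inclusion intensities of 771 and 781. Its shift of 0.495 lay just under the threshold, and rounding of the intensities to whole numbers alone would allow 0.488 to 0.503. Sema4a, a membrane-bound semaphorin, had an alternative 3' splice site of 46 nucleotides with a shift of -0.47, from exclusion intensities of 427 and 312. Sema6c, a membrane-bound semaphorin with a long cytoplasmic tail, had 5 events, all between -0.30 and -0.07, the most negative at a cassette of 96 nucleotides (exclusion 360 and 330, inclusion 213 and 241).

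Among the other ligands, Efna5, an ephrin held at the membrane by a lipid anchor, had 1 cassette with a shift of -0.02. The 4 Slit and netrin genes had 8 events and 0 past the threshold (7.34% over all events), too few events to read the 0 as a difference. Their median signed shift was -0.10. Ntng1 codes for netrin-G1, a lipid-anchored netrin relative at axons and synapses known for many splice forms. In its event of several paths, the first path had intensities of 735 in set A and 488 in set B, the fourth 268 and 189, and the second 392 and 399, against a reference of 1515 and 1394. The shifts of these paths were -0.47, -0.38 and 0.15, so the paths of Ntng1 differed in direction. A separate cassette of 60 nucleotides in Ntng1 had exclusion intensities of 87 and 62, inclusion intensities of 770 and 618, and a shift of -0.17. With 50 added to every intensity that shift was 0.01, so its direction is not settled.

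Among guidance receptors, the 7 Eph receptor genes had 9 of 10 shifts above 0 (55.4% over all events), with a median of 0.25. These events were of mixed types and included alternative ends, whose exclusion path is not known. The tally thus gives no common direction for the family. Past the threshold was 1 of the 10 events (7.34% over all events), too few events to read as a difference. Ephb4, a receptor for ephrin-B2 known chiefly from blood vessels, had an alternative transcript end with exclusion intensities of 76 and 97 and inclusion intensities of 117 and 90. Its shift of 0.73 (1.66-fold) was the highest of the group and ranked 172 among all events, and it rested on intensities near the low end of the array. A second Ephb4 event, an alternative 3' splice site of 26 nucleotides, had both paths brighter in set B (exclusion 244 and 291, inclusion 84 and 123), and was the 1 Eph receptor event below 0, at -0.30. All 3 events of Epha5, an ephrin-A receptor of forebrain neurons, had shifts between 0.15 and 0.34. The cassette of 66 nucleotides in Epha5 had exclusion intensities of 1442 and 1830 beside inclusion intensities of 777 and 810.

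The 6 Robo and Unc5 genes had 7 of 9 shifts above 0 (55.4% over all events), with a median of 0.20. Unc5b, a netrin receptor of neurons and vessel walls, had an alternative start with exclusion intensities of 179 and 255, inclusion intensities of 375 and 351 and a shift of 0.61. Its cassette of 33 nucleotides had exclusion intensities of 1060 and 1307 and inclusion intensities of 827 and 768, a shift of 0.41. Both Unc5b shifts were above 0, at separate places in the gene, but the sign of a start cannot be set against that of a cassette. Robo2, a Slit receptor, had 2 alternative ends with shifts of 0.20 and 0.15. Among the 5 plexin and neuropilin genes the shifts were mixed, with a median of 0.01. Plxnd1, a semaphorin receptor with a known part in vessel patterning, had an alternative 3' splice site of 101 nucleotides with exclusion intensities of 92 and 135 beside inclusion intensities of 1103 and 1039. The shift was 0.64, or 1.56-fold, although the inclusion path stayed far brighter in both sets. Plxna3, a semaphorin co-receptor, had a retained intron of 132 nucleotides with a shift of -0.34, from intensities of 370 and 258 for the spliced path and 406 and 358 for the intron.

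**Figure D2:**
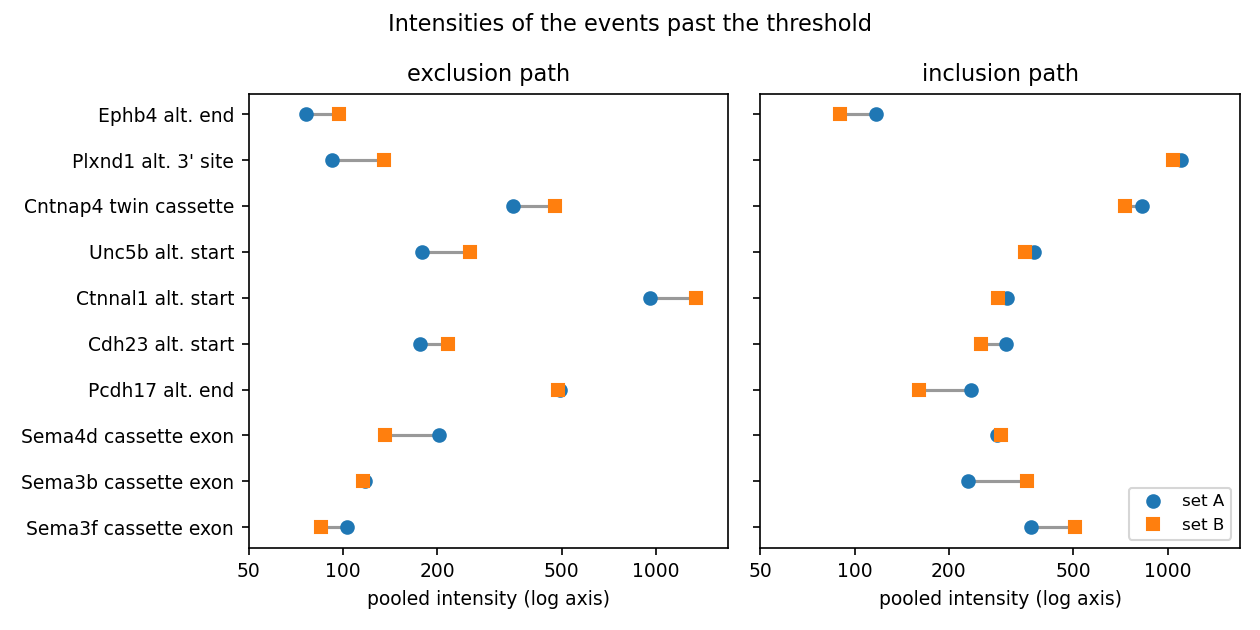
For each of the 10 events past the threshold, points give the exclusion and the inclusion intensity (log axis, arbitrary units) of each set, as pooled by the authors, circles for set A and squares for set B. Sema3f and Sema3b show a higher inclusion point in set B, from 365 to 507 and from 231 to 356, while Plxnd1, Unc5b and Ctnnal1 show a higher exclusion point in set B.

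Markers of brain cell types were also compared between the sets. The log2 difference in brightness of an event was the mean of the log2 differences, set B over set A, of the 2 intensities compared in it. It need not follow the direction of their sum. In bulk RNA, fewer cells of a type and less RNA per cell cannot be told apart. For endothelium, 2 of 4 marker genes (Pecam1 and Flt1) had events, 6 in all, with summed intensities of 3389 and 3197 in the sets A and B, and a median log2 difference in brightness of -0.12 (2 of 6 events brighter in set B, range -0.20 to 0.24). Flt1 was the brightest of them, neither was at 0, and Cldn5 and Kdr had no event. The part of cell types in the shifts was not tested. For other cell types sums and medians over events did not always point the same way. Summed intensities were 37763 and 36258 for neuron markers (3 of 8 genes, brightest Snap25) and 2634 and 2405 for immature neuron markers (2 of 4, Dcx). They were 53104 and 51488 for oligodendrocytes (4 of 8, Mbp), 40249 and 41546 for astrocytes (6 of 6, Slc1a2), 1767 and 1789 for microglia (2 of 5, Csf1r) and 1247 and 1143 for choroid plexus (2 of 4, Otx2). Over events with an exclusion path, the median log2 differences in brightness were -0.06 for neurons, -0.09 for immature neurons, -0.04 for oligodendrocytes, -0.03 for astrocytes and -0.04 for microglia. Choroid plexus had 1 such event, at -0.13, and its median over both events was -0.15. Median and sum differed in sign for astrocytes and microglia. Over all 3 immature neuron events, the third being an event of several paths, the median was 0.09, with 2 of 3 brighter in set B, so there too the sign depended on the measure. Neither of the blood markers had an event. Past the threshold among microglia markers was 1 of 3 events (7.34% over all events), a 3' splice site of Csf1r at -1.13. Among immature neuron markers it was also 1 of 3, a 5' splice site of Dcx at 0.68. Shifts lay above 0 in 7 of 7 astrocyte, 3 of 3 neuron and 2 of 2 immature neuron events with an exclusion path. They did so in 5 of 9 for oligodendrocytes, 2 of 6 for endothelium, 1 of 3 for microglia and 0 of 1 for choroid plexus.

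The 3 alternative starts past the threshold, of 21 in the group (14.3%, against 6.32% of all alternative starts), were those of Unc5b, Ctnnal1 and Cdh23. All 3 had a shift above 0, and with 50 added to every intensity only Ctnnal1 stayed past the threshold. Ctnnal1 codes for alpha-catulin, a relative of the actin-linking alpha-catenins, and its exclusion path had 954 and 1343, the latter the brightest intensity among the 10 events, against an inclusion path of 306 and 287. The shift was 0.59. Cdh23, a large cadherin of the hair cell tip link, had exclusion intensities of 176 and 216, inclusion intensities of 305 and 253 and a shift of 0.57. Because these events concern where transcripts begin, the RefSeq promoter windows of the 3 genes (GRCm38.p6, 250 bases before to 50 bases after the annotated start, all on the minus strand, written 5' to 3') are shown, with each GC box, GGGCGG or its reverse complement CCGCCC, in capitals. They lie at chr10:60831532-60831831 for Unc5b, chr4:56865162-56865461 for Ctnnal1 and chr10:60696441-60696740 for Cdh23.
Unc5b: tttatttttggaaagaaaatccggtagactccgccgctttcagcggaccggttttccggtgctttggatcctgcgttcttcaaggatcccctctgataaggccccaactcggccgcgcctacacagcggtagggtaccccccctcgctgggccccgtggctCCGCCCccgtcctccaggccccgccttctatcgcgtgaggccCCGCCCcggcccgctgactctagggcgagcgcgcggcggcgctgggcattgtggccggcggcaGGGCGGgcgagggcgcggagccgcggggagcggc
Ctnnal1: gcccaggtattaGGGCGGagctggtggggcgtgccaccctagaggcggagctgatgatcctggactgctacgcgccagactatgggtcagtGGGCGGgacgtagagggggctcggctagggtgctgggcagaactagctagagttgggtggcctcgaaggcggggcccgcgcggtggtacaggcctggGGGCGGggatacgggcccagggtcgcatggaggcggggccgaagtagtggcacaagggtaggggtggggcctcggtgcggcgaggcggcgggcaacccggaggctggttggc
Cdh23: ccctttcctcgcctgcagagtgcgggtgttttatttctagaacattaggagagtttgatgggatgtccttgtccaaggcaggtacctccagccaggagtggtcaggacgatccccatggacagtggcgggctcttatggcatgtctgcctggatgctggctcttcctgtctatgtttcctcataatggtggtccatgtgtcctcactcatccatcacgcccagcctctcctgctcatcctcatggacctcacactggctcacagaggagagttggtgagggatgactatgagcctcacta
The windows of Unc5b and Ctnnal1 each held 3 GC boxes and were 69.7% and 70.3% GC, while that of Cdh23 held 0 and was 54.0% GC. Of 32851 promoter windows of the same length, 35.7% held the motif, and their median was 52.7% GC. These windows belong to 1 annotated start a gene and could not be tied to either path of the array event.

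Cadherins other than Cdh23 stayed under the threshold, with 1 event past it in the family (6.67%, against 7.34% of all events). The 9 cadherin genes had 15 events, with 9 of 14 shifts above 0 and a median of 0.09. Cdh7, a type II cadherin, had a cassette of 36 nucleotides with a dim exclusion path of 72 and 98, an inclusion path of 762 and 747, and a shift of 0.47. Cdh19, in which the study followed an intronic IAP retrotransposon, had 1 event with exclusion intensities of 153 and 149 and inclusion intensities of 281 and 261. Its shift was 0.07, less than the group's median size. By quantitative RT-PCR across the intron with the IAP, the study found more correctly spliced Cdh19 RNA with Nxf1 CAST. This was the smallest of its statistically supported effects. The study also states that the array lacked most junctions related to IAPs. Whether this array event covers the assayed junction was not tested, so its shift cannot be set against that effect.

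Protocadherins form the largest cadherin subfamily in brain, and their clustered genes use alternative first exons spliced to shared constant exons. Pcdh17, a non-clustered protocadherin at synapses of the basal ganglia circuit, had an alternative end with inclusion intensities of 235 and 160 beside a level exclusion path of 492 and 487. The shift was 0.54. Over the whole group, 2 of 26 alternative ends passed the threshold (7.69%, against 2.78% of all ends), Pcdh17 and Ephb4. With 50 added to every intensity neither did, at 0.43 and 0.48. The gamma cluster event, listed under Pcdhgc5, has 22 paths set against a reference of 5043 and 5000, the brightest in the group. Its paths had shifts from -0.15 to 0.40 with a median of 0.04, and 15 were above 0. The alpha cluster event, listed under Pcdhac2, has 12 paths with shifts from -0.09 to 0.35 and a median of 0.13, of which 11 were above 0, against a reference of 713 and 734. None of the 34 paths passed the threshold, and paths of 1 cluster share that reference, so they do not vary independently.

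**Figure D3:**
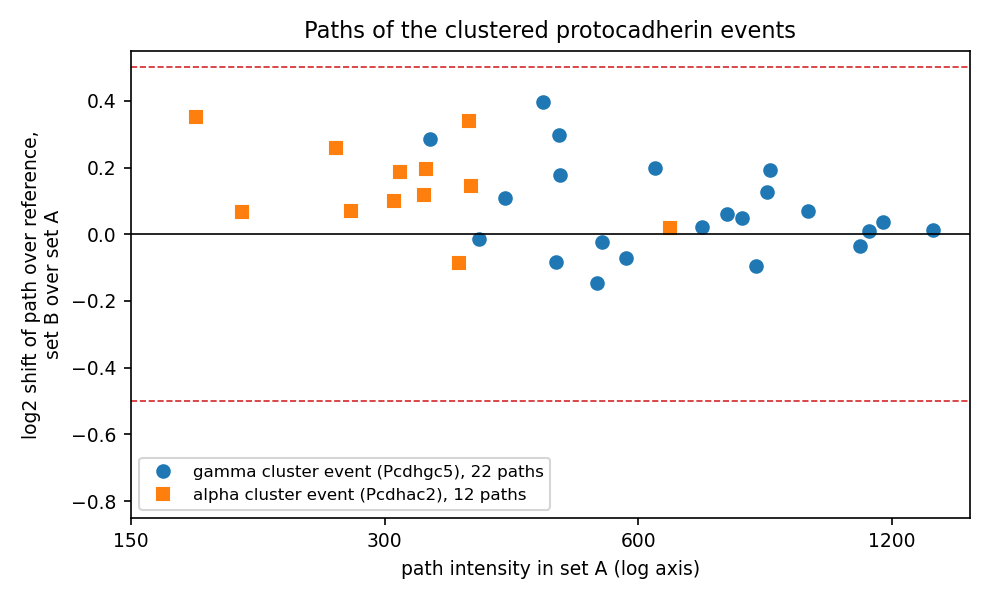
Points are the single paths of the alpha (12) and gamma (22) protocadherin cluster events, placed by their intensity in set A (horizontal log axis) and their log2 shift over the reference in set B over set A (vertical axis), with dashed lines at the threshold. All lie between -0.15 and 0.40, inside the threshold of 0.5.

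Immunoglobulin cell adhesion molecules were the family with the most events. The 11 genes had 34 events and 0 past the threshold (7.34% over all events), with a median absolute shift of 0.11, against 0.18 over all events. Ncam1, the neural cell adhesion molecule, has well-known isoforms, and 4 of its events were on the array. A cassette of 801 nucleotides, which matches in length the exon of the long cytoplasmic domain, had exclusion intensities of 1192 and 864 and inclusion intensities of 2143 and 1950. Both paths were dimmer in set B, the exclusion path more so, and the shift was -0.33. The cassette of 30 nucleotides, the length of the VASE exon in an immunoglobulin domain, had exclusion intensities of 2226 and 2016, inclusion intensities of 3091 and 3042 and a shift of -0.12. The 2 alternative ends of Ncam1 had shifts of 0.32 and -0.06, so the gene had shifts of both signs.

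In the L1 family, Nrcam, which binds ankyrin at axonal nodes, had 5 events between -0.47 and 0.21. The lowest was a cassette of 57 nucleotides with exclusion intensities of 155 and 116 beside a far brighter inclusion path of 3299 and 3425, while its cassette of 30 nucleotides had a shift of 0.02. Nfasc, a neurofascin of nodes and paranodes, had 6 events between -0.24 and 0.19, and Chl1, the close homologue of L1, had 6 between -0.09 and 0.20. Cadm1, a synaptic adhesion molecule, had 2 events at -0.01 and 0.04 and an event of several paths with a largest absolute shift of 0.28. Among contactins, lipid-anchored partners of the L1 family, a retained intron of 200 nucleotides in Cntn2 had a shift of -0.35 (spliced path 696 and 529, intron 357 and 346) and a cassette of 58 nucleotides in Cntn4 a shift of -0.32 (exclusion 116 and 85, inclusion 235 and 215). Neither reached the threshold.

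Cntnap4, a neurexin relative at inhibitory synapses, had the only event past the threshold among the contactin-associated and leucine-rich repeat proteins. Its pair of neighbouring cassette exons, of 171 and 219 nucleotides, had exclusion intensities of 348 and 474 and inclusion intensities of 830 and 730. Skipping of the pair was relatively higher in set B, with a shift of 0.63 or 1.55-fold. The alternative start of Cntnap2, its relative at juxtaparanodes of myelinated axons, had a shift of -0.28. The leucine-rich repeat proteins of the synapse, Lrrtm3 and Lrrtm4, had 3 events and 0 past the threshold (7.34% over all events). So few events do not set these genes apart.

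Catenins, which link cadherins to actin or act in Wnt signalling, had 8 of 9 shifts above 0 in 7 genes (55.4% over all events), with a median of 0.29. Apart from Ctnnal1, none was past the threshold, which makes 1 of 9 events (11.1%, against 7.34% of all events). Ctnna2, the neuronal alpha-catenin, had a cassette of 144 nucleotides with exclusion intensities of 1144 and 1501, inclusion intensities of 262 and 277 and a shift of 0.31. Ctnnd1, the p120 catenin that holds cadherins at the membrane, had cassettes of 63, 118 and 289 nucleotides with shifts of -0.23, 0.09 and 0.29. The exon of 63 nucleotides, the 1 catenin event below 0, had both paths dimmer in set B (exclusion 216 and 151, inclusion 952 and 779).

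**Figure D4:**
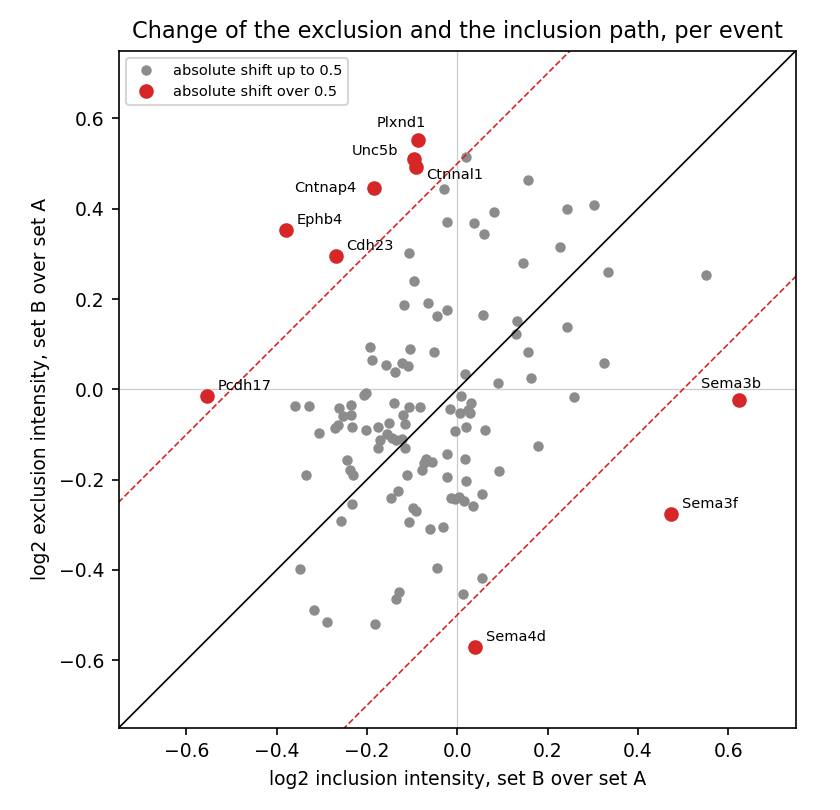
For each event with an exclusion path, the log2 difference of the exclusion intensity in set B over set A (vertical axis) is plotted against that of the inclusion intensity (horizontal axis). The solid diagonal marks a shift of 0, the dashed lines shifts of 0.5 and -0.5, and red points the 10 events past the threshold. The cloud of points centres left of and below 0, with medians of -0.08 for inclusion and -0.06 for exclusion.

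The median log2 difference in brightness between the sets was -0.09 over the group and 0.01 over all events. It was -0.09 for the other adhesion genes outside the group too, and -0.04 for guidance signalling genes. Within the group, Eph receptors (0.14), semaphorins (0.04) and catenins (0.03) had medians above 0, while that of immunoglobulin cell adhesion molecules was -0.12. The group's median was -0.06 for exclusion and -0.08 for inclusion paths, against 0.02 and -0.02 over all events. A difference common to both paths cancels in the shift.

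Events of 1 gene can share exons and probes and are not independent. Their shifts often differed in sign, which across types of event need not mean a different direction of isoform choice. Of the 75 genes, 45 had 1 event and 30 had more, and 17 of these had events of both signs. Grouped by role, guidance ligands and receptors had 6 of 55 events past the threshold (10.9%) in 35 genes, and adhesion molecules and catenins 4 of 76 (5.26%) in 40 genes, on either side of the 7.34% over all events, and the difference between them was not tested. By type of event, alternative 3' splice sites had 1 of 7 past the threshold (9.09% over all such events) and twin cassettes 1 of 2 (10.5%). None of the 14 complex events (8.38%), 9 events of several paths (10.6%), 7 retained introns (9.87%) or 2 alternative 5' splice sites (10.8%) passed.

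**Figure D5:**
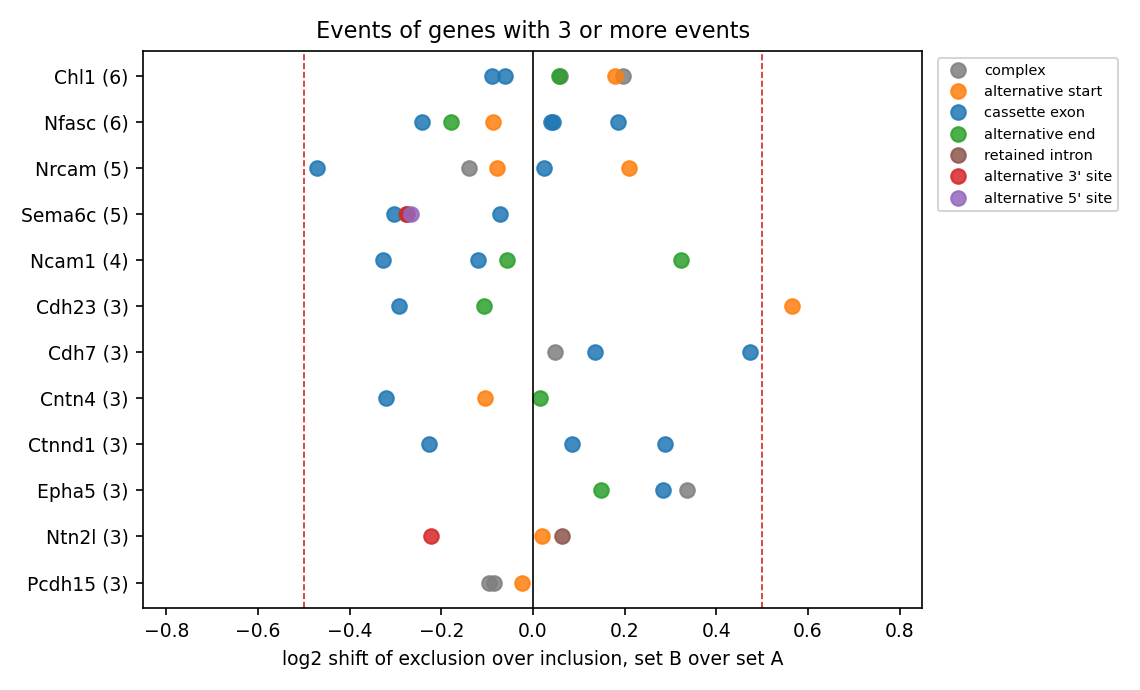
For genes with 3 or more events that have an exclusion path (number in brackets), each point is the log2 shift of 1 event in set B over set A (horizontal axis), coloured by type of event, with dashed lines at the threshold of 0.5. All 5 points of Sema6c lie below 0 and all 3 of Epha5 above 0, while Ncam1, Nrcam, Nfasc and Chl1 have points on both sides.

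The lengths of the cassette exons were not used in the choice of genes. Of 43 cassettes, 29 had a length divisible by 3 (67.4%, against 53.2% of 3738 cassettes with a length in the table), and 14 were at most 60 nucleotides long (32.6%, against 20.3%). Their median length was 93 nucleotides, against 101, with a range from 27 to 801. In the outside lists described last, 20 of 26 cassettes of guidance signalling genes (76.9%) and 28 of 31 of other adhesion genes (90.3%) were divisible by 3, and 38.5% and 61.3% were at most 60 nucleotides long, so these features were not particular to the group. Among the cassettes past the threshold, the exon of Sema3f (93) keeps the frame by length, while those of Sema3b (379) and Sema4d (64) do not.

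Outside the group, 56 genes were listed for guidance signalling, mostly effectors inside the cell with some further receptors. Of these, 41 had events, 85 in all, and 8 passed the threshold (9.41%, against 7.34% of all events), 4 above, 3 below and 1 without a sign. Dpysl5, a collapsin response mediator, had the most negative shift at -0.92, and Ablim3, an actin-binding protein, the highest at 0.74. Trio, a guanine nucleotide exchange factor, had 2 events past the threshold, at 0.72 and 0.57. The others were Arhgef7 (0.54), the cell-surface adhesion receptor Dscaml1 (-0.53), Ngef (-0.51) and an event of several paths of the GTPase gene Cdc42 (0.50). Of 68 other adhesion genes, 43 had events, and 2 of 80 passed (2.50%, against the same 7.34%), the teneurin gene Odz4 at 0.62 and Kirrel3, of the nephrin family, at -0.59.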

How the data were processed

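The arrays covered brains of 6 animals, 3 of either Nxf1 genotype as the labels give it. The authors deposited summarized exclusion and inclusion intensities for each path of an event as whole numbers, pooled over the arrays of a set, and values per array were not analysed here. Affymetrix Power Tools is named in the submitters' processing notes, without a version, and the normalization, background correction and genome assembly are not given in the sources used here. The table also holds the authors' own comparison, a log2 separation score and a q-value for each path, and neither was used.

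The log2 shift was computed from the intensities for the 26399 of 26514 paths that had them. The exclusion to inclusion ratio of set B was divided by the one of set A, without an offset or a filter on dim paths. Paths were joined by event name, and an event took the path with the largest absolute shift and the sign of its exclusion path. Of 13002 events, 12948 had intensities, and 1 of the 300 paths of the group had none. The pooled columns carry no spread between the animals, so no test was run, and counts are set beside the share of all events past the same threshold of 0.5. The calculation was tested on simulated data.

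The genes, families and the lists of guidance signalling, other adhesion molecules and cell type markers were chosen with earlier results of these data known. The rule for named events took those past the threshold, the 10 highest and the 10 lowest shifts, and all events of Ncam1, Nrcam, Nfasc, L1cam, Chl1, Cadm1, Robo1, Robo2, Ctnnd1, Ntng1 and Cdh19. The other events named, those in Epha5, Efna5 and Cntnap2, the starts of Sema3f and Sema3b, the second Ephb4 event, the cassette of Ctnna2, the remaining Sema6c events, the protocadherin clusters and the genes past the threshold in the other lists, were chosen after their values were seen. Alternatives were thresholds of 0.3 and 0.75, offsets of 16 and 50, an intensity minimum of 100, the exclusion path alone, genes as the unit, centring, leaving out the catenins, and the intensities listed for the standard comparison. Promoter windows came from RefSeq (GRCm38.p6). Calculations ran in Python 3.11.15 with pandas 2.3.3, numpy 2.4.6 and scipy 1.17.1, and plots were drawn with matplotlib 3.10.9.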

Additional observations from a re-analysis of the deposited data

How the results depend on the processing

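The number of events past the threshold depended on the size asked for and on how dim paths were treated. At a threshold of 0.3 there were 30 events, 17 of them with a positive shift (22.9%, against 26.0% of all events), and at 0.75 there was 1, Sema3f, and 0 with a positive shift (0.763%, against 1.15%). With 50 added to every intensity, 4 events remained past 0.5, 2 of them positive (3.05% of the group, against 3.18% of all events). The offset pulls the log2 difference of each single path toward 0, more so for a dim path. A shift sets 2 paths against each other and can therefore shrink, grow or change sign. Under that offset the shifts were 0.48 for Ephb4, 0.50 for Unc5b, 0.46 for Plxnd1 and Cdh23, 0.43 for Pcdh17 and -0.47 for Sema4d, and the shift of the cassette of 60 nucleotides in Ntng1 went from -0.17 to 0.01. Smaller shifts moved as well, to 0.31 for the cassette of 36 nucleotides in Cdh7, -0.19 for that of 58 in Cntn4, -0.13 for that of 63 in Ctnnd1 and 0.02 for the second end of Robo2. Sema3f (-0.61), Cntnap4 (0.57), Ctnnal1 (0.55) and Sema3b (-0.55) were the 4 still past it. With each gene taken by its largest event the median absolute shift was 0.243, and 10 of the 75 genes were past the threshold (13.3%, against 11.7% of all genes). The other alternatives gave 7 to 11 events past the threshold, 5 to 7 of them positive, or 6.25% to 8.4% of the events counted, against 5.39% to 7.34% of all events. Centring on the median of all signed events, 0.03, took the cassette of 57 nucleotides in Nrcam to -0.51 and that of 30 nucleotides from 0.02 to -0.01, and shifts under 0.1 in size moved by over 1.5 times in several other events. The intensities listed for the standard comparison were identical.

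No paired analysis was possible because the columns of intensities hold only values pooled over the arrays of a set. Leaving out a replicate was not possible for the same reason. The authors' own comparison, with a score and a q-value for each path, was not used, and values per array were not analysed here.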
